A study of Mus musculus with 35 samples.

Results

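Chromatin remodelers use ATP to slide, evict or restructure nucleosomes, and their genes were followed here while mouse embryonic stem (ES) cells were turned toward primitive endoderm (PrE) by the transcription factor GATA6. The genes were 45 named members of 4 families, taken by gene symbol from the 44853 genes of the induction table: the BAF complex, also called SWI/SNF, with its ATPases, core and variant subunits, the nucleosome remodeling and deacetylase complex NuRD, the CHD ATPases and the ISWI ATPases, with Ino80 added as the ATPase of a further family. They were chosen by name, with earlier results of these data known. All 45 members were listed, and 43 of them reached a mean of 1 TPM (a gene's share of all transcripts after division by gene length, put on a common total) in at least 1 group and were tested. Dpf3 stayed between 0.0404 and 0.629 TPM in group means, and Actl6b, the neuronal counterpart of Actl6a, was at or close to 0 in every group.

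BAF complexes hold either SMARCA4 (BRG1) or SMARCA2 (BRM) as their motor, and the remaining positions are filled by small families of interchangeable paralogues. The form found in ES cells is known for SMARCA4, SMARCC1 and SMARCD1, with little SMARCA2 or SMARCC2, and is needed for self-renewal. NuRD joins a CHD motor to the deacetylases HDAC1 and HDAC2 and is known for restraining pluripotency genes so that ES cells can commit to a lineage. ISWI motors space nucleosomes evenly.

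The ES cells were KH2 cells of a C57BL/6 x 129/Sv background with a GATA6 cassette under doxycycline (Dox) control, grown in serum and LIF on fibroblast feeders that were adsorbed away before lysis. They were profiled untreated (0 h) and after 16, 24, 48, 72, 96 and 168 h in 1 µg/mL Dox, with 3 libraries each. The 2 libraries of XEN cells, the stem cell line that stands for PrE, came from the wild type line X10 of CD1 background grown without LIF or Dox, so line, strain, medium and cell type cannot be told apart in any comparison with them. A second series held 12 libraries of Gata6-inducible ES cells nucleofected with siRNA and kept 48 h in Dox. Of these, 6 carried a non-targeting siRNA (siCTL) and 6 an siRNA that lowers Oct4 (siOct4). Only genes that the authors had called responsive to GATA6 were listed for this series, of which 13 were members. Whether both series came from 1 clone of the inducible cells is not stated in the paper. All Dox comparisons and the XEN comparison with ES cells share the same 3 untreated libraries. TPM keeps no record of read number, so the depth of the libraries is unknown and the spread between libraries is the error used.

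The labels were met by the markers. Gata6, whose transcripts from the cassette and from the gene itself were counted together, averaged 0.264 ± 0.0978 TPM (0 h) and 134 ± 4.60 TPM (16 h) (SD, n = 3). The sum of 12 PrE markers went from 144 to 236 TPM (0 h) to 29754 to 30639.8 TPM (168 h), while 10 pluripotency markers went from 9507 to 9781 to 1923 to 2722 TPM, against 95.6 to 100.2 TPM in XEN cells. The sum of 12 fibroblast markers was 54.9, 41.6 and 125 TPM in the 0 h libraries, 152, 150.0 and 312 TPM (168 h) and 119.6 and 123 TPM in XEN cells, and 7 of the 11 that could be tested were called higher at 168 h. The sum of 8 trophectoderm markers went from 10.9, 13.3 and 10.5 TPM (0 h) to 239.7, 294 and 202 TPM (168 h), with 239 and 221 TPM in XEN cells. At 168 h 95.8% of it was Krt18, a keratin of simple epithelia, and all 5 that could be tested rose, Krt18 alone by enough for a call, while Cdx2, Gata3, Tfap2a and Elf5 were below 2 TPM in each 168 h library. Libraries numbered 3 stood apart in the fibroblast surface gene Thy1. It was between 13.4 and 34.9 TPM in the 7 Dox series libraries with that number and between 1.20 and 4.75 TPM in the other 14. The fibroblast sum of the libraries numbered 3 was the highest of its time except at 96 h. There it was the lowest, 95.8 TPM against 134.8 and 129.3 TPM. The part of feeder RNA or of trophectoderm-type expression in the results below was not tested. Since these are bulk RNA samples, fewer cells of a type and less RNA per cell cannot be told apart.

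The sequences in front of the SMARCA4 and SMARCA2 genes are given first, because Smarca2 had the largest change of all members and Smarca4 is its alternative. Both are upstream of the RefSeq start and of the GENCODE M21 gene span, on the plus strand of GRCm38 (mm10), with CG dinucleotides in capitals.
Smarca4, chr9:21615919-21616168: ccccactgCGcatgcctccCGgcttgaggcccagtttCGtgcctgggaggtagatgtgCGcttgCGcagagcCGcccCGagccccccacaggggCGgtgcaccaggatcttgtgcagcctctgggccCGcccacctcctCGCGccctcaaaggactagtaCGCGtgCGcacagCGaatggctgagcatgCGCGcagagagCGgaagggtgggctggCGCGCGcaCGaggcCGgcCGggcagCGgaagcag
Smarca2, chr19:26604910-26605049: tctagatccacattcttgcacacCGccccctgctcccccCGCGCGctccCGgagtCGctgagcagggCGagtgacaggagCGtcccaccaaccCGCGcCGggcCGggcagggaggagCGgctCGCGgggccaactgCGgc
The stretch of 250 bases before Smarca4 was 70.8% G and C with 25 CG dinucleotides, and the 140 bases before Smarca2 were 73.6% G and C with 16. The motif of GATA factors, searched as the letters AGATAA, was found in neither stretch on either strand. Among the 35 members with a RefSeq promoter, 2 (Chd4 and Gatad2b) held it within 250 bases upstream, or 5.71%, against 11.4% of all 27025 gene symbols with a promoter. The promoters of the members had medians of 67.4% G and C and 21.5 CG dinucleotides, against 52.4% and 6 for all promoters. The part of this base composition in the 2 motif shares was not tested.

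The question asked of the time course was which remodeler genes moved as GATA6 acted, and when. "Changed" is used for an adjusted p under 0.05 in limma over all 15057 genes tested, and "called" for the same with a difference of more than 1 on the log2(TPM + 1) scale, the thresholds of the study. After 16 h, 2 members of 43 were called higher and 0 lower, where 1.97% of all genes were called higher and 0.804% lower. At 24 h the counts were 2 and 1 (all genes 3.24% and 2.44%), at 48 h 2 and 3 (9.14% and 7.26%), at 72 h 2 and 6 (14.7% and 11.5%), and at 96 h 2 and 5 (15.4% and 14.1%). By 168 h 6 members were called higher, Smarca2, Smarcc2, Brd9, Chd3, Chd6 and Smarca1, and 6 lower, Smarcd1, Dpf1, Actl6a, Bcl7a, Chd5 and Chd9, so each direction held 14.0% of the tested members against 22.6% and 16.5% of all genes. The members were thus called no more often than genes at large at 168 h.

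Smaller shifts were far more common than calls. The number of members that rose and fell was 3 and 3 at 16 h (all genes 7.91% and 5.03%), 5 and 3 at 24 h (16.7% and 11.8%), and then 5 and 22 at 48 h (27.7% and 26.1%). It was 12 and 20 at 72 h (33.9% and 31.6%), 14 and 20 at 96 h (34.5% and 32.9%) and 17 and 21 at 168 h (41.1% and 33.9%). The step between 24 and 48 h was the widest, and it lay on the side of falls. The median difference of the 43 members from 0 h was 0.05 at 24 h, -0.20 at 48 h and -0.22 at 168 h on the log2 scale, beside 0.03, 0 and 0.09 over all genes tested. Median-of-ratios rescaling of the libraries shifted the 168 h median over every gene tested from 0.09 to -0.05. After it, the median of the members at 168 h was -0.40, and changed members split into 9 that rose and 25 that fell at 168 h. The earlier splits became 4 against 5 after 24 h and 2 against 4 after 16 h. Here and below, no share over all genes is given after rescaling, so rescaled counts cannot be set against genes at large. The 8 members whose small rise at 168 h no longer passed were Smarcd2, Dpf2, Bcl7b, Chd1, Chd7, Mta1, Mta2 and Gatad2b, so whether these 8 passed depends on the scaling. Brd7, Pbrm1, Phf10 and Smarce1 passed as lower only after rescaling. All 12 calls at 168 h were kept, and Ino80, Mta3 and Smarcd3 joined them.

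**Figure D1:**
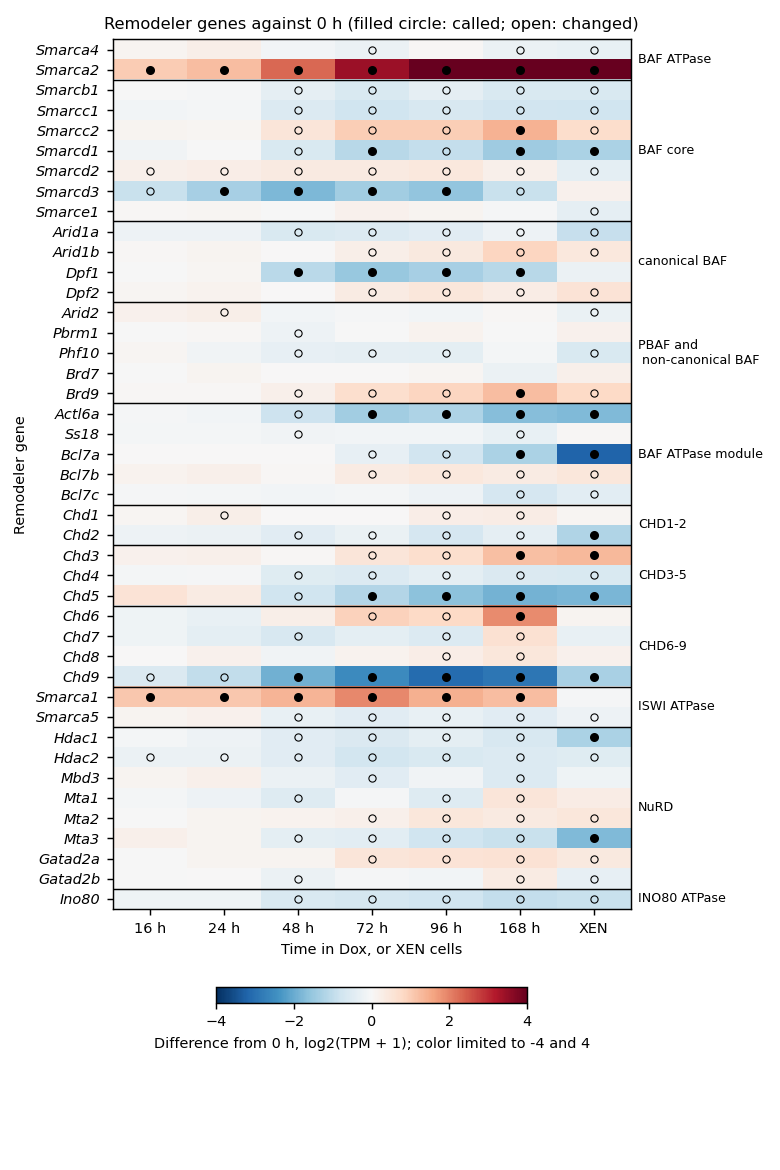
Difference of each of the 43 tested members from 0 h, as log2(TPM + 1), at 6 Dox times and in XEN cells (columns), ordered by role (rows). Red is higher and blue lower than 0 h, filled circles mark calls and open circles other changes; Smarca2 is called in all 7 columns, while most other rows stay pale until 48 h.

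The order of events differed between members. Changes that began at 16 h and held their direction at every later time were seen for 6 members: Smarca2, Smarca1 and Smarcd2 rose, and Smarcd3, Chd9 and Hdac2 fell. Each direction held 6.98% of the members tested, against 4.97% of all genes that rose and 3.99% that fell. A further 15 members changed from 48 h and held the change through 168 h. Of these, 13 went downward (30.2% of the members tested, against 10.7% of all genes) and 2 upward (4.65% against 10.6%). The 13 included Smarcb1, Smarcc1, Smarcd1, Arid1a, Actl6a, Chd4, Smarca5, Hdac1, Mta3 and Ino80. With no filter on low levels, 13 members in place of 27 passed at 48 h. From 72 h through 168 h, 7 members rose (16.3% against 5.66% of all genes) and 1, Bcl7a, fell (2.33% against 4.77%). Another 5 (Chd1, Chd8, Chd7, Mta1 and Gatad2b) rose and 4 (Smarca4, Ss18, Bcl7c and Mbd3) fell from 96 or 168 h. All but Chd1 and Chd8 were counted from 168 h, the last Dox time, so whether their change lasted is unknown. Chd7, Mta1 and Gatad2b had been lower at an earlier time. Rises held 4.65% of the members from 96 h and 6.98% from 168 h (all genes 3.56% and 9.96%). Falls held 0% and 9.30% (all genes 3.15% and 5.94%). In 5 members, Smarce1, Arid2, Pbrm1, Phf10 and Brd7, no change was held to 168 h (11.6%, against 25.0% of all genes). With the libraries numbered 3 left out, a fit added after the data were seen, 11 members changed at 16 h (6 with all libraries) and 18 at 24 h (8 with all libraries), and at 96 and 168 h the same 34 and 38 members changed.

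Smarca2, the gene of the alternative BAF motor BRM (chromosome 19, 26605050 to 26778322), rose without a pause. It was listed at 2.01, 1.38 and 1.90 TPM (0 h), 3.80, 4.06 and 6.17 TPM (16 h), 10.5, 15.3 and 11.9 TPM (48 h) and 73.3, 73.5 and 106 TPM (168 h), with 100.1 and 89.6 TPM in XEN cells. No library from 16 h onward overlapped those at 0 h. The difference was 1.02 ± 0.16 (SE), adjusted p = 2.15e-04 at 16 h and 4.93 ± 0.16 (SE), adjusted p = 2.55e-15 at 168 h, a 47.8-fold ratio of mean TPM. At 16 h it lay close to the fold threshold and was 0.88 (adjusted p = 0.00134) without the libraries numbered 3, so the call there, though not the rise, rested on them. It was also under that threshold without the 0 h library numbered 2 (0.92) or the 16 h library numbered 3 (0.84). The 168 h library numbered 3 was highest in Smarca2 and in the fibroblast sum alike. The other 168 h libraries had fibroblast sums of 152 and 150.0 TPM, and the 16 h libraries 92.1, 87.9 and 161 TPM.

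Smarca4, the motor BRG1 of the ES cell complex (chromosome 9, 21616169 to 21704230), moved little. Its libraries held 69.1, 67.0 and 72.7 TPM (0 h), 57.6, 58.0 and 59.9 TPM (168 h) and 57.3 and 56.7 TPM in XEN cells. It fell slightly by 168 h (-0.25 ± 0.09 (SE), adjusted p = 0.0151) and was not called at any time. Smarca2 therefore made up 2.83, 2.02 and 2.54% of the summed TPM of both motors at 0 h, 13.8, 18.4 and 16.3% at 48 h, 56.0, 55.9 and 63.9% at 168 h and 63.6 and 61.3% in XEN cells. The 0 h and 168 h shares did not overlap, and the two-sided exact permutation test gave p = 0.1, the smallest that 3 against 3 libraries allow. In TPM the transcripts of the alternative motor thus outnumbered those of BRG1 in each library at 168 h and in both of XEN cells.

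**Figure D2:**
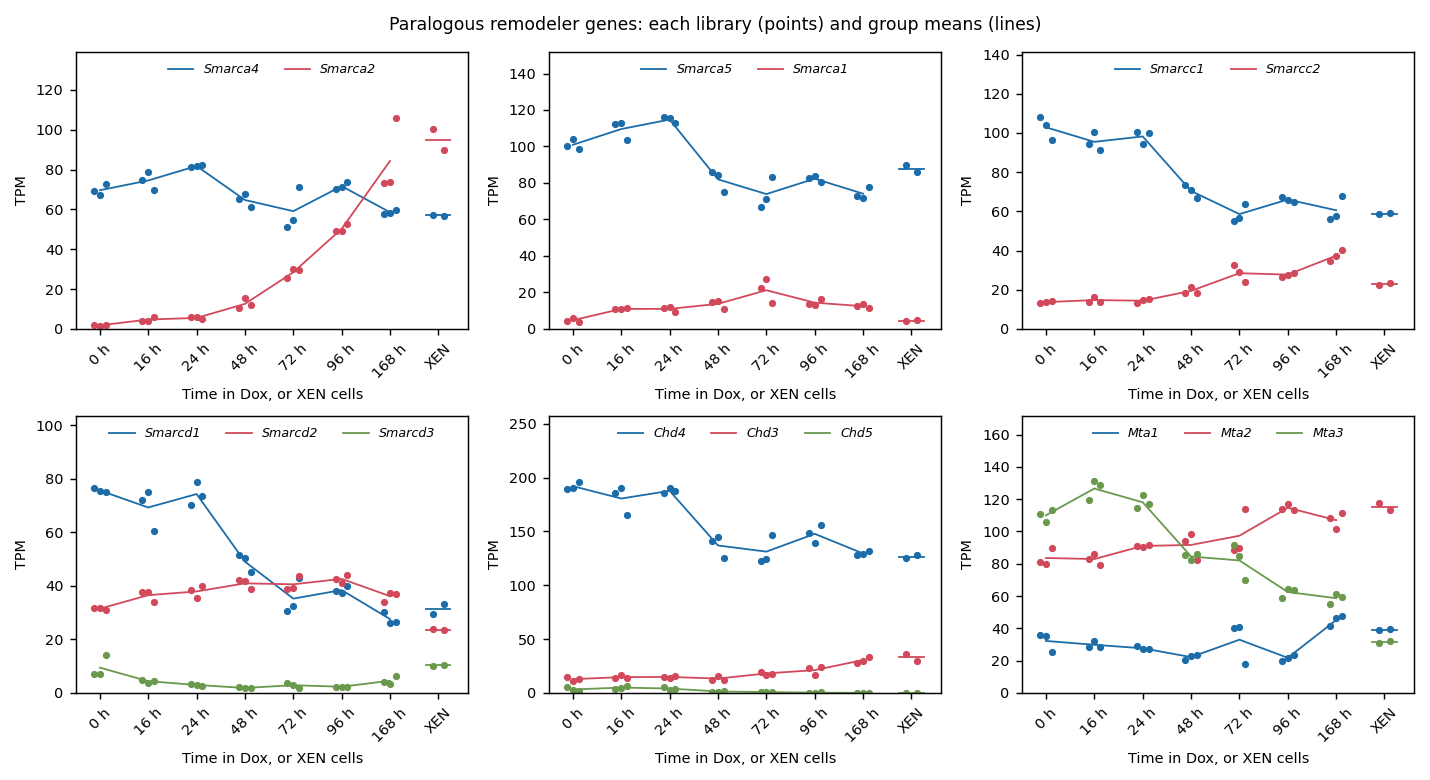
TPM of paralogous members in every library (points) with group means (lines) at 0 h, 6 Dox times and in XEN cells. Smarca2 passes Smarca4 between 96 and 168 h, Smarcd2 passes Smarcd1 at 72 h, Mta2 passes Mta3 at 48 h, and the 72 h library numbered 3 lies apart in several panels.

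Among the 7 core subunits, which brace the motor, 2 rose and 4 fell at 168 h, where 41.1% of all genes rose and 33.9% fell. After rescaling the counts were 1 and 5. Smarcc2 (BAF170, chromosome 10, 128459248 to 128490482) was at 13.2, 13.6 and 14.1 TPM (0 h), 34.7, 36.9 and 40.5 TPM (168 h) and 22.3 and 23.7 TPM in XEN cells. It was higher in every 168 h library than in any at 0 h (1.39 ± 0.10 (SE), adjusted p = 2.70e-10), and XEN cells lay between the 2 groups. Its paralogue Smarcc1 (BAF155) went the other way, from 103 ± 6.04 to 60.5 ± 6.23 TPM (SD, n = 3; -0.76 ± 0.07 (SE), adjusted p = 1.51e-08). The share of Smarcc2 in the pair was 11.7% ± 0.964 at 0 h, 38.2% ± 0.788 at 168 h and 28.1% ± 0.683 in XEN cells, and Smarcc1 stayed the more abundant of the pair throughout.

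The SMARCD family, from which a complex takes a single member, was reordered. Smarcd1 (BAF60a, chromosome 15, 99702129 to 99713991) was at 76.7, 75.3 and 75.0 TPM (0 h), 30.1, 26.3 and 26.5 TPM (168 h) and 29.4 and 33.1 TPM in XEN cells, and every library of the last 2 groups was below every untreated one. It fell by 1.43 on the log2 scale at 168 h (SE 0.11, adjusted p = 3.37e-10). Smarcd2 was at 31.5 ± 0.308 TPM (0 h) and 36.2 ± 1.86 TPM (168 h), and its share of the family went from 27.0% ± 0.994 to 53.0% ± 3.04, which put it above Smarcd1 in all 3 libraries at 168 h but not in XEN cells (36.3% ± 1.79). Smarcd3 (BAF60c, chromosome 5, 24590818 to 24624411), known for heart and muscle development, was lower at every Dox time, with its lowest mean at 48 h. Its libraries were at 7.15, 7.01 and 14.2 TPM (0 h), 2.07, 1.83 and 1.71 TPM (48 h), 4.18, 3.28 and 6.20 TPM (168 h) and 10.1 and 10.6 TPM in XEN cells. It was called lower from 24 to 96 h, reached -1.80 ± 0.22 (SE), adjusted p = 1.15e-06 at 48 h, and was 1.06 ± 0.25 (SE), adjusted p = 0.00149 higher in XEN cells than at 168 h. The 0 h library numbered 3 was well above the others, and without the libraries of that number the 24 h value was -0.97 in place of -1.33 and the 72 h value -0.88 in place of -1.39, so that both calls were lost.

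Of the last 2 core members, Smarcb1, a subunit lost in rhabdoid tumours, fell from 101 ± 8.69 to 65.7 ± 5.31 TPM (-0.62 ± 0.11 (SE), adjusted p = 3.14e-05). Smarce1 was at 85.4 ± 5.43 and 83.2 ± 2.57 TPM and did not pass the test at any Dox time. In XEN cells it was lower than at 0 h (-0.37 ± 0.09 (SE), adjusted p = 7.84e-04).

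Directions were mixed among the subunits that define BAF subtypes. In canonical BAF, where 2 members rose and 2 fell at 168 h (1 and 2 after rescaling), Arid1a, the large DNA-binding subunit often mutated in cancer, fell at 48 h to 44.9 ± 2.92 TPM from 69.4 ± 1.83 TPM and was at 59.9 ± 8.43 TPM by 168 h, still below the untreated level, while its paralogue Arid1b rose from 7.37 ± 0.748 to 14.3 ± 1.36 TPM (0.87 ± 0.09 (SE), adjusted p = 8.69e-08). The share of Arid1b in the pair was 9.58% ± 0.644 at 0 h, 19.3% ± 0.931 at 168 h and 21.9% ± 0.214 in XEN cells, while the sum of the pair was lower in XEN cells than at 168 h. Dpf1, a histone reader better known from neurons (chromosome 7, 29303951 to 29318243), was at 11.7, 13.2 and 12.01 TPM (0 h), 5.29, 5.43 and 5.32 TPM (48 h), 5.23, 4.49 and 5.88 TPM (168 h) and 9.94 and 10.5 TPM in XEN cells. It kept its level through 24 h, was called lower from 48 h (-1.11 ± 0.18 (SE), adjusted p = 2.07e-05 at 168 h) and differed from 0 h by -0.25 in XEN cells (adjusted p = 0.286). Its widely expressed paralogue Dpf2 went from 50.3 ± 2.33 to 61.9 ± 5.97 TPM.

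The 4 PBAF members, Arid2, Pbrm1, Phf10 and Brd7, had small differences: the largest difference among them at 168 h was -0.24 on the log2 scale for Brd7 (adjusted p = 0.0849), and none passed the test there without rescaling, although Phf10 fell from 48 to 96 h. Brd9, the bromodomain subunit of non-canonical BAF (chromosome 13, 73937811 to 73960895), behaved otherwise. It was at 19.8, 20.3 and 20.0 TPM (0 h), 32.5, 34.6 and 31.4 TPM (72 h), 48.3, 48.5 and 48.3 TPM (168 h) and 36.9 and 34.7 TPM in XEN cells. The libraries of each group lay within a narrow range and the 4 groups did not overlap, with 1.23 ± 0.06 (SE), adjusted p = 9.59e-13 at 168 h.

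The ATPase module, which joins actin-like and BCL7 proteins to the motor, held 2 called members, both lower. Actl6a (BAF53a, chromosome 3, 32706298 to 32726973), the actin-related subunit of dividing progenitor cells that is also part of INO80 and TIP60 complexes, was the most abundant BAF member at 0 h. It was at 151, 149 and 159 TPM (0 h), 140.2, 141 and 140.4 TPM (24 h), 91.8, 84.5 and 82.4 TPM (48 h), 50.4, 44.7 and 44.3 TPM (168 h) and 43.6 and 44.2 TPM in XEN cells. Almost all of the fall came after 24 h, and the 168 h value was 0.303 of the untreated level (-1.70 ± 0.09 (SE), adjusted p = 4.07e-12). Bcl7a (chromosome 5, 123343834 to 123374992) was at 11.1, 10.2 and 7.75 TPM (0 h), 9.83, 10.02 and 9.31 TPM (48 h), 5.21, 5.18 and 5.12 TPM (96 h) and 3.28, 4.56 and 2.69 TPM (168 h). It fell late (-1.25 ± 0.14 (SE), adjusted p = 9.62e-08), and in XEN cells it was barely listed, at 0.172 and 0.152 TPM. The paralogues did not follow: Bcl7b was at 23.5 TPM (0 h), 30.0 TPM (168 h) and 32.5 TPM in XEN cells, and Bcl7c at 56.2, 35.3 and 42.0 TPM. Ss18, the subunit fused in synovial sarcoma, changed by -0.31 at 168 h (adjusted p = 5.50e-05).

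The ISWI motors also diverged. Smarca1 (SNF2L, chromosome X, 47809368 to 47892974) was at 4.54, 5.97 and 3.71 TPM (0 h), 10.8, 10.7 and 11.2 TPM (16 h), 22.3, 27.2 and 14.0 TPM (72 h), 12.3, 13.7 and 11.2 TPM (168 h) and 4.24 and 4.70 TPM in XEN cells. It was above the 0 h range in every Dox library, peaked at 72 h, and was back in the untreated range in XEN cells. The rise was 1.07 ± 0.19 (SE), adjusted p = 5.61e-04 at 16 h, 1.92 ± 0.19 (SE), adjusted p = 3.70e-08 at 72 h and 1.24 ± 0.19 (SE), adjusted p = 7.92e-06 at 168 h. Without the libraries numbered 3 the 16 h value was 0.92 (adjusted p = 0.000167), again just under the fold threshold. Without the 0 h library numbered 3 alone, the values at 16 and 24 h were both 0.94 and not called. Smarca5 (SNF2H), the main ISWI motor of ES cells, averaged 101 ± 2.87 TPM (0 h) and 74.1 ± 3.02 TPM (168 h) (-0.44 ± 0.07 (SE), adjusted p = 1.42e-05). Smarca1 made up 4.34, 5.42 and 3.63% of the pair at 0 h, 14.4, 16.0 and 12.7% at 168 h and 4.51 and 5.19% in XEN cells, so it stayed the minor motor at all times.

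CHD proteins pair the motor with chromodomains that read histone tails. Of the 3 that can serve NuRD, Chd4 (Mi-2β), the most abundant motor among the members, fell from 192 ± 3.48 to 129.5 ± 1.69 TPM (-0.56 ± 0.07 (SE), adjusted p = 8.20e-07). Chd3 (chromosome 11, 69343273 to 69369406) was at 14.3, 11.5 and 12.6 TPM (0 h), 28.2, 29.8 and 33.6 TPM (168 h) and 36.0 and 30.0 TPM in XEN cells, with both later groups wholly above the first. It rose by 1.19 ± 0.14 (SE), adjusted p = 1.71e-07, and its share among the 3 genes went from 6.15% ± 0.637 to 19.1% ± 1.20. Chd5, known mainly from neurons and testis (chromosome 4, 152338651 to 152390194), was at 5.20, 2.46 and 1.92 TPM (0 h), 3.76, 4.35 and 6.89 TPM (16 h), 0.0407, 0.102 and 0.0406 TPM (168 h) and 0.182 and 0.0607 TPM in XEN cells. These are low levels with a wide spread at 0 h, yet no 168 h or XEN library reached the lowest untreated one (-1.90 ± 0.26 (SE), adjusted p = 2.05e-06). At 72 h the call rested on the 0 h library numbered 1, without which the value was -0.85.

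The remaining CHD genes included the largest fall among the members on the log2(TPM + 1) scale at 168 h, that of Chd9, and the second largest rise, that of Chd6. With a pseudocount of 0.1 the fall of Chd5 (-4.25) was larger than that of Chd9 (-3.39). Chd9 (chromosome 8, 90828352 to 91054516) was at 21.3, 23.6 and 16.0 TPM (0 h), 12.4, 13.7 and 12.9 TPM (16 h), 3.77, 4.93 and 5.10 TPM (48 h), 1.57, 1.41 and 1.55 TPM (96 h), 1.24, 1.86 and 2.59 TPM (168 h) and 6.89 and 8.17 TPM in XEN cells. It had left the untreated range by 16 h (-0.59 ± 0.18 (SE), adjusted p = 0.0346) and reached -2.89 ± 0.18 (SE), adjusted p = 2.29e-11 at 168 h, with XEN cells between the 2. Chd6 (chromosome 2, 160946978 to 161109075) was at 18.7, 17.6 and 15.4 TPM (0 h), 40.6, 47.3 and 19.9 TPM (72 h), 28.6, 32.6 and 31.3 TPM (96 h), 62.3, 72.7 and 64.8 TPM (168 h) and 16.6 and 20.9 TPM in XEN cells. The 168 h libraries were far above all others (1.89 ± 0.21 (SE), adjusted p = 8.31e-08), XEN cells overlapped with 0 h, and the 72 h library numbered 3 lay far below its fellows. The same 72 h library was lowest of the 3 for Chd2 and Mta1 and had the lowest sum of PrE markers at that time, 9754 TPM against 13351 and 13732 TPM. Chd7, mutated in CHARGE syndrome, dipped to 13.8 ± 2.52 TPM (48 h) from 22.2 ± 4.76 TPM and stood at 33.8 ± 2.50 TPM (168 h). Chd8 was at 50.8 TPM (0 h) and 69.6 TPM (168 h) (0.44 ± 0.08 (SE), adjusted p = 1.05e-04). Chd2 (chromosome 7, 73426638 to 73541830) was at 38.8, 36.6 and 37.9 TPM (0 h), 27.3, 29.1 and 31.6 TPM (168 h) and 15.2 and 16.2 TPM in XEN cells, where alone it was called (-1.21 ± 0.13 (SE), adjusted p = 1.09e-07). Chd1, a reader of active promoters that keeps ES chromatin open, ranged only from 36.5 to 45.4 TPM over the group means of the time course.

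All 8 other NuRD members changed at 168 h, 4 in each direction, and none was called, where 41.1% of all genes rose and 33.9% fell. After rescaling, 1 rose and 4 fell, and Mta3 was called. Hdac1 (chromosome 4, 129516104 to 129542713), the most abundant member at 0 h, was at 223, 222 and 251 TPM (0 h), 151, 129 and 162 TPM (168 h) and 96.0 and 93.8 TPM in XEN cells. The 3 groups did not overlap, and the difference was -0.65 ± 0.09 (SE), adjusted p = 2.68e-06 at 168 h and -1.28 ± 0.10 (SE), adjusted p = 1.35e-09 in XEN cells. A processed pseudogene listed as Hdac1-ps averaged 14.7 TPM (0 h) and 20.2 TPM in XEN cells, and how reads were split between it and Hdac1 is uncertain. Hdac2 fell in parallel, from 119.9 ± 2.32 to 82.5 ± 4.13 TPM, and the share of Hdac2 in the pair at 0 h and 168 h overlapped (34.1% ± 1.18 and 36.0% ± 1.91, two-sided exact permutation p = 0.3). In XEN cells its share was 46.7 and 48.0%, above every library at 0 h and 168 h. Mbd3, the subunit that holds the ES complex together, went from 182 ± 7.71 to 124 ± 11.2 TPM (-0.55 ± 0.13 (SE), adjusted p = 8.84e-04).

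The MTA scaffolds changed places. Mta3 (chromosome 17, 83706163 to 83821516) was at 111, 106 and 114 TPM (0 h), 55.1, 61.4 and 59.5 TPM (168 h) and 31.1 and 32.4 TPM in XEN cells, and each step down was free of overlap. It fell by 0.90 on the log2 scale by 168 h (adjusted p = 3.64e-09) and was called in XEN cells (-1.76 ± 0.09 (SE), adjusted p = 1.09e-12). Mta2 went from 83.6 ± 5.56 to 107 ± 5.33 TPM and Mta1 from 32.2 ± 6.14 to 45.1 ± 3.16 TPM. The share of Mta3 in the family was 48.6, 47.9 and 49.7% at 0 h, 26.9, 29.4 and 27.2% at 168 h and 16.6 and 17.5% in XEN cells, while that of Mta2 went from 37.0% ± 2.05 to 50.8% ± 2.18 and 61.9% ± 0.952. Gatad2a, which links the deacetylase part to the motor, rose from 66.4 ± 4.22 to 99.6 ± 5.98 TPM (0.58 ± 0.07 (SE), adjusted p = 9.28e-07). Gatad2b was at 20.4 ± 0.947 and 25.6 ± 1.74 TPM, and its share of the pair went from 23.5% ± 0.383 to 20.5% ± 1.15. Ino80, the motor of a complex that works on H2A.Z nucleosomes, fell from 18.3 ± 0.220 to 8.91 ± 0.352 TPM (-0.96 ± 0.07 (SE), adjusted p = 3.47e-10).

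The 12 paralogue shares compared between 0 h and 168 h can be read together. In 10 of them the 3 libraries of each time did not overlap and the exact permutation p was 0.1, the least possible (0.12 after Benjamini-Hochberg adjustment over the 12), so no share could pass 0.05 in this design. The other 2 were Hdac2 and Smarcd3. The share of Smarcd3 was 8.05% ± 3.25 at 0 h and 6.64% ± 2.06 at 168 h (p = 0.5 in the same exact test), and the sign of the difference turned without the 0 h library numbered 3. Summed over all 25 BAF members, the level was 1166 ± 28.0 TPM (0 h), 1009.5 ± 47.8 TPM (168 h) and 968 ± 3.96 TPM in XEN cells, and for the 11 NuRD members with Chd3, Chd4 and Chd5 it was 1054 ± 35.7, 851 ± 32.1 and 792 ± 3.60 TPM (SD, n = 3, 3 and 2). Both sums were lower in every 168 h library than in any at 0 h. The shares above are percentages within a paralogue family, so they are not on the scale of these sums.

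XEN cells served to ask which member levels at 168 h were those of an established endoderm line. Against 0 h, 2 members were called higher (Smarca2 and Chd3) and 8 lower (Smarcd1, Actl6a, Bcl7a, Chd2, Chd5, Chd9, Hdac1 and Mta3), where 18.9% and 18.7% of all genes were called. In all, 9 rose and 22 fell, against 35.0% and 36.2% of all genes. Between XEN cells and 168 h, 2 members were called higher in XEN cells (Smarcd3 and Chd9) and 3 lower (Bcl7a, Chd6 and Smarca1), with 4.73% and 9.17% of all genes called. Smarca1 and Chd6 were -1.29 ± 0.21 (SE), adjusted p = 5.64e-05 and -1.78 ± 0.23 (SE), adjusted p = 3.77e-06 from their 168 h levels, and Bcl7a and Chd9 -1.93 ± 0.15 (SE), adjusted p = 7.16e-09 and 1.58 ± 0.20 (SE), adjusted p = 3.07e-06. For Smarca2, the difference between XEN cells and 168 h was 0.19 ± 0.18 (SE), adjusted p = 0.422. The counts of changed members here, 8 higher and 18 lower (all genes 17.8% and 32.2%), became 14 and 14 after median-of-ratios rescaling, which moved the median of all genes from -0.14 to -0.02. The 5 calls were kept and Dpf1 was added. Smarcd3 was 0.89, under the fold threshold, without the 168 h library numbered 2.

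**Figure D3:**
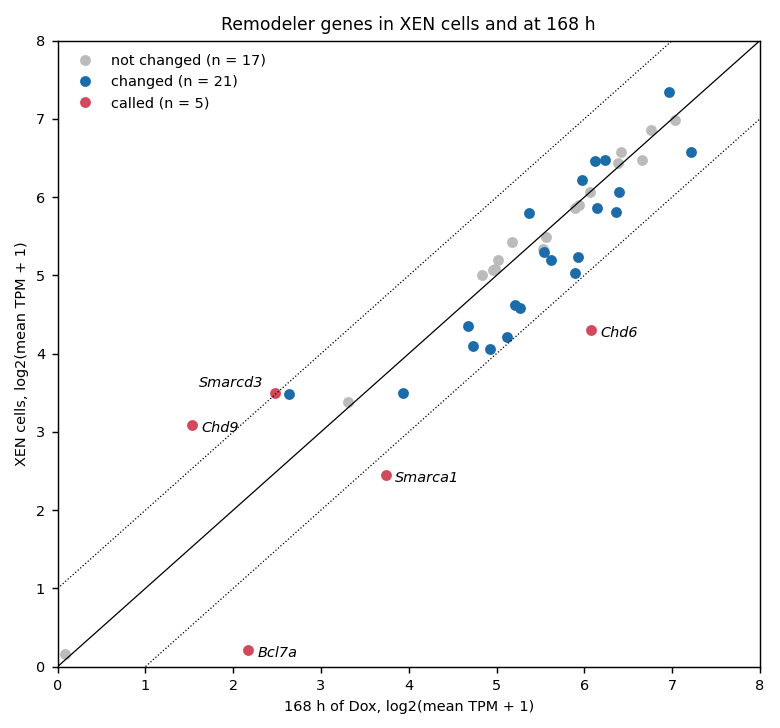
Mean level of each tested member in XEN cells (vertical) against 168 h of Dox (horizontal), both as log2(mean TPM + 1), with the line of equality and dotted lines 1 unit away. The 5 called members are named. Among them Bcl7a lies nearest the floor in XEN cells, and 17 of the tested members did not pass the test.

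The siRNA series asked what a lowered Oct4 level did to the members 48 h into induction. Pou5f1, the gene of Oct4, was lower in every siOct4 library (282, 314 and 387 TPM as lowest, median and highest) than in any siCTL library (782, 895 and 1194 TPM), a difference of -1.52 ± 0.14 (SE), adjusted p = 5.21e-05. Of the 13 members in the table, 0 were higher and 1 was lower at an adjusted p under 0.05, and the same 1 passed the fold minimum of 0.5 used in the study, where 0.942% and 1.72% of the 6264 genes tested were called. At an unadjusted p under 0.05 in limma there were 2, the other being Smarcd3. Other markers moved with siOct4. The 5 trophectoderm markers in this table summed to 103, 99.3, 95.7, 84.8, 81.8 and 78.7 TPM in siCTL and 293, 318, 232, 231, 565 and 606 TPM in siOct4, with no overlap, and 1 of the 5, Krt18, passed the test. Krt18 made up 76.4% of that sum in siCTL and 90.1% in siOct4. The 12 PrE markers summed to 6035, 6141, 5169, 11521, 7483 and 6665 TPM in siCTL. In siOct4 they summed to 5485, 3863, 4837, 7313, 6805 and 6532 TPM, lower in every same-numbered pair, though the ranges overlapped. Gata6 was lower in 6 of 6 pairs (-0.50 ± 0.22 (SE), adjusted p = 0.326, and 0.0503 with library number as a block). Their part in the values of the members was not tested. The member that passed was Smarca1, the ISWI motor that had risen with GATA6. Its siCTL libraries held 27.2, 30.2, 17.7, 39.6, 27.0 and 25.3 TPM, with the lowest at 17.7, the median at 27.1 and the highest at 39.6. Its siOct4 libraries held 18.5, 10.7, 12.2, 15.8, 11.2 and 10.5 TPM, with a lowest of 10.5, a median of 11.7 and a highest of 18.5. In the time course, the 48 h libraries held 14.7, 15.5 and 10.96 TPM of Smarca1. These lay within the siOct4 range and below every siCTL library. The siOct4 level was thus lower than siCTL but not lower than the 48 h level of the time course. Why siCTL lay above the time course was not tested. All 6 same-numbered pairs showed the lower value with siOct4, and 5 of the 6 siOct4 libraries lay below every siCTL library. The difference was -1.02 ± 0.21 (SE), adjusted p = 0.0169, and -0.87 with an adjusted p of 0.0174 after rescaling, which moved the median of all listed genes from -0.12 to 0.01. Some libraries with consecutive numbers were nearly alike (Pearson r across genes up to 0.990), and when consecutive libraries were averaged to 3 against 3, the difference of -1.03 no longer passed (adjusted p = 0.163).

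The other 12 members did not pass the test. Those described next were chosen after their values were seen. Smarcd3, which fell with GATA6, had siCTL values of 0.721, 1.25 and 2.09 TPM and siOct4 values of 1.58, 2.19 and 5.28 TPM (lowest, median and highest), with 5 of 6 pairs higher in siOct4 (0.68 ± 0.25 (SE), adjusted p = 0.205). With library number as a block, the adjusted p of Smarcd3 was 0.0675. Smarcd1 was lower with siOct4 in 6 of 6 pairs, at -0.60 ± 0.33 (SE), adjusted p = 0.468, and the block on library number gave an adjusted p of 0.0729. Smarca2, the member with the steepest rise under GATA6, had siCTL values of 21.6, 25.2, 17.3, 38.2, 18.2 and 14.3 TPM and siOct4 values of 21.5, 19.4, 14.8, 19.8, 23.3 and 25.5 TPM (-0.06 ± 0.22 (SE), adjusted p = 0.938). These ranges overlapped widely. The sum of the 6 fibroblast markers in this table was 195, 181, 31.1, 217, 41.7 and 49.9 TPM in siCTL and 66.9, 62.5, 40.5, 32.9, 219 and 198 TPM in siOct4, and in 5 of the 6 pairs Smarca2 was higher in the library with the higher sum. For Chd3, Chd6, Chd9, Brd9, Smarcc2, Dpf1, Actl6a, Bcl7a and Ino80 the differences lay between -0.52 and 0.22, with adjusted p between 0.555 and 0.893. Their standard errors, up to 0.46 for Chd9, leave shifts of the size seen for Smarca1 undetectable for some of them.

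**Figure D4:**
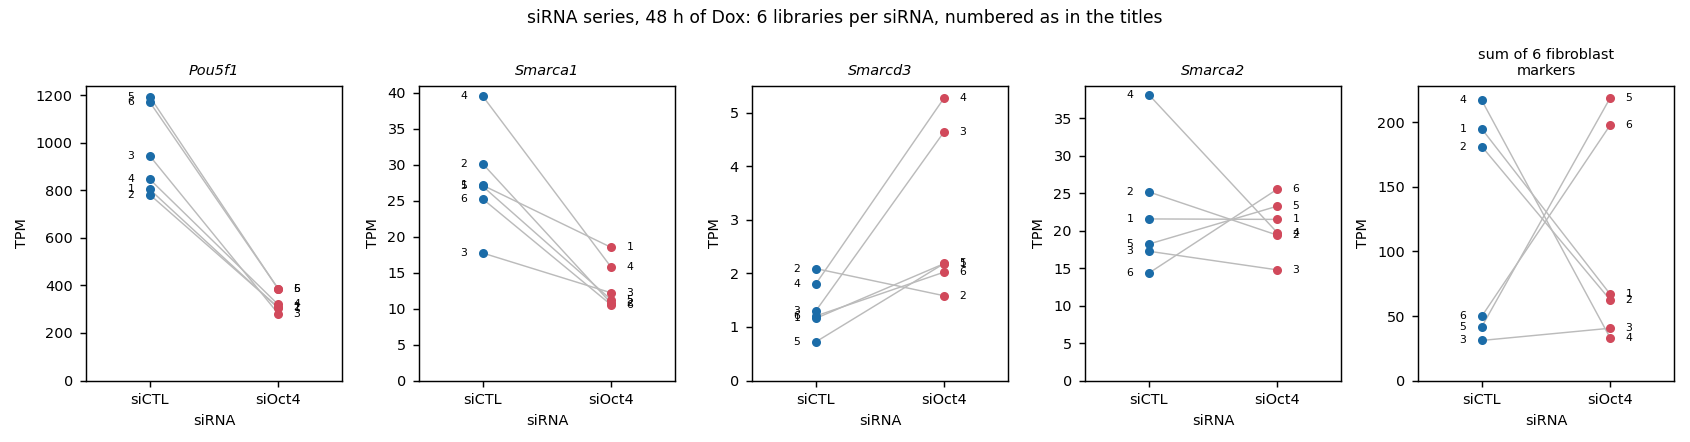
TPM of Pou5f1, Smarca1, Smarcd3 and Smarca2, and the sum of 6 fibroblast markers, in each of 6 siCTL and 6 siOct4 libraries (points), with lines joining libraries of the same number. Pou5f1 and Smarca1 go down in all 6 pairs, whereas Smarca2 and the fibroblast sum cross.

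Genes of further remodeler subunits and Snf2-type motors gave a comparison list of 51, of which 49 were tested in the time course. At 168 h 2 of them were called higher and 6 lower (all genes 22.6% and 16.5%), and 12 rose and 23 fell (41.1% and 33.9%), with a median of -0.21 beside -0.22 for the members. In XEN cells 1 was called higher and 12 lower than at 0 h (all genes 18.9% and 18.7%). The 5 with the largest differences at 168 h were Mbd2, the methyl-DNA reader that takes the place of MBD3 in NuRD, from 12.2 to 58.7 TPM (2.18 ± 0.10 (SE), adjusted p = 3.81e-13), the helicases Ruvbl1 (-2.10 ± 0.09 (SE), adjusted p = 8.98e-14) and Ruvbl2 (-1.81 ± 0.07 (SE), adjusted p = 1.10e-14) shared by INO80 and TIP60 complexes, Bicral, a subunit of non-canonical BAF (-2.10 ± 0.16 (SE), adjusted p = 4.51e-10), and Hells, a motor needed for DNA methylation (-1.88 ± 0.09 (SE), adjusted p = 2.53e-13). Mbd3 and Mbd2 thus moved in opposite directions within NuRD, as Smarcc1 and Smarcc2 did within BAF. None of the 10 list genes in the siRNA table passed the test with siOct4, and at an unadjusted p under 0.05 there was 1. After median-of-ratios rescaling 1 of the 10, a NuRD subunit gene, was called higher. With library number as a block 1 passed, Rbbp7, a histone-binding subunit of NuRD (0.56, adjusted p = 0.00181 with the block and 0.0907 without).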

How the data were processed

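Messenger RNA was measured in 35 libraries, 23 in the induction series and 12 in the siRNA series, grouped by their titles. The authors sequenced stranded polyA libraries, mapped paired reads with STAR (mm10) and deposited RSEM gene estimates in TPM. Libraries that stood out in a principal component analysis had been dropped by them. Versions of STAR and RSEM and the gene annotation were not given in the sources used here. Deposited group means and columns with the authors' own classes of response to GATA6 and to siOct4 were not used. Where a symbol stood on more than 1 row (60 symbols), only the most highly expressed row was used.

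TPM were taken as log2(TPM + 1), so differences of low genes are understated. Genes whose group mean reached 1 TPM anywhere (15057 and 6264) were tested with limma 3.58.1 in R 4.3.3 (trend and robust options) in 1 fit over all 23 or all 12 libraries, with Benjamini-Hochberg adjustment over all genes tested. Calls needed an adjusted p under 0.05 and a difference over 1 (induction) or 0.5 (siRNA). Errors are SD over libraries or SE of the fit. Shares of paralogues were compared with two-sided exact permutation tests in scipy 1.17.1. The fits were tested on simulated data. The study describes the induction libraries as independent replicates and the knockdowns as independent, and p-values measure the spread between these libraries.

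The members and gene lists were chosen with earlier results of these data known. Every member is accounted for, and those called at 168 h or in XEN cells are given by library. Same-numbered siCTL and siOct4 libraries deviated together (correlations from 0.24 to 0.71 over 6 pairs, mean 0.33, against -0.06 for other pairs). Some libraries were closer to one of another number. The correlation of siCTL 2 was 0.34 with siOct4 1 and 0.24 with siOct4 2, and that of siCTL 5 was 0.31 with siOct4 6 and 0.27 with siOct4 5. The study compared endogenous Gata6 over its 6 knockdowns with a paired test, without stating how those pairs map to library numbers. Whether library numbers pair the samples is thus not settled, and the main fit is unpaired. Gene spans are from GENCODE M21 (mm10) and promoters from RefSeq (GRCm38.p6), which covered 35 of the 45 members and not Mta3, Smarce1, Hdac1, Chd3, Chd1, Chd2, Chd7, Bcl7a, Ss18 and Arid2. Reads shared with the pseudogenes Hdac1-ps, Smarca5-ps and Smarce1-ps1 make these 3 members uncertain.

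The alternatives tried were no filter or a filter at 5 TPM, median-of-ratios rescaling, the replicate block, a pseudocount of 0.1, only the 2 groups compared, an adjusted p under 0.01 and each library left out. Averaging consecutive siRNA libraries, leaving out siRNA libraries 3 and 4, and leaving out Dox series libraries numbered 3 were chosen after seeing the data.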

Additional observations from a re-analysis of the deposited data

Results flagged for a closer look

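In 26 groups of 6 siRNA libraries (13 members, siCTL and siOct4), 2 held a library that stood apart from the rest of its group, and chance gives about 1.3. Both were low values of the siCTL library numbered 3. Chd9 was at 1.39 there on the log2(TPM + 1) scale and between 2.81 and 3.23 in the other 5 siCTL libraries. Ino80 was at 2.43 there and between 3.95 and 4.57 in the others. The same library had the lowest sum of fibroblast markers in siCTL, 31.1 TPM. It was also the lowest of its group for every member in this series except Smarca2 and Smarcd3. Its sum of PrE markers was the lowest of siCTL, 5169 TPM, and its sum of pluripotency markers the highest, 14109 TPM. The 2 flags thus came from 1 library that was low across most members. Neither Chd9 nor Ino80 passed the test between siCTL and siOct4.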

How the results depend on the processing

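Counts of members called at 24, 48, 72, 96 and 168 h and in both XEN comparisons stayed within 1.5 times of those reported under all alternatives run. The 2 calls at 16 h became 1 to 3 when a library was left out and 0 without the Dox series libraries numbered 3. Members changed at 16 h, 6 in all, numbered 3 to 5 with a library left out, 2 with no filter and 11 without libraries numbered 3. The 8 changed at 24 h became 4 with no filter, 13 with only the 2 groups compared and 18 without libraries numbered 3. With no filter, 13 in place of 27 changed at 48 h and 13 in place of 26 between XEN cells and 168 h. The cause of these shifts was not tested. The 1 siRNA call, Smarca1, became 0 at an adjusted p under 0.01 and 0 with consecutive libraries averaged (by either rule), where fewer samples remain, and stayed 1 with libraries 3 and 4 left out and with any single library left out. The share of Smarcd3 turned from -1.40 to 0.47 percentage points without the 0 h library numbered 3, and ranged from -2.54 to 0.47 with a library left out. Of the log2 differences of called members, 665 values under the alternatives kept the call and 11 kept their direction but not the call, and none turned. The replicate block, where induction libraries share only a number (correlations from -0.19 to 0.22, mean 0.03), gave 2, 3, 5, 8, 7 and 12 calls at the 6 Dox times and 5, 8, 26, 31, 34 and 38 changes. It changed no member's call in the siRNA series (1 and 1). A paired test of shares could not be made because no paralogue family is complete in the siRNA table. Depth is unknown, so what it limits could not be given.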
